A study of Mus musculus with 12 samples.

Results

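A set of 10 TRIM genes was followed through the 4 groups of RNA-seq libraries: Trim13, Trim25, Trim30a, Trim30d, Trim12c, Trim21, Trim26, Trim34a, Trim56 and Trim14. They were picked by gene symbol, with earlier results of these data known. All 10 were found among the 55335 genes of every library and passed the filter on low counts. The libraries came from BMDCs, dendritic cells grown from C57BL/6 mouse bone marrow for 6 days with the growth factor GM-CSF. WT cells carried CreER, a Cre recombinase expressed from the Rosa26 locus in all cells that acts once 4-hydroxytamoxifen (4-OHT) is given, and KO cells were CreER;CTCF fl/fl, so that 4-OHT, added on the first day of culture, removed the floxed Ctcf alleles. WTL and KOL were the same cells stimulated with LPS, a bacterial cell wall component, at 100 ng/ml for 3 h, and each of the 4 groups had 3 libraries. The mice were of both sexes and 8 to 12 weeks old. The sources do not make plain whether the WT cultures also received 4-OHT, so an effect of the drug and one of CTCF loss cannot be told apart. The paper states 3 biological replicates per condition, but nothing says that these came from separate mice. The p-values measure the spread between these libraries only.

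TRIM proteins share a tripartite motif of a RING domain, which transfers ubiquitin to target proteins, a B-box and a coiled coil, and many end in a PRY/SPRY domain that binds the target. Many TRIM genes are induced by interferon, and their products adjust the signals that follow the sensing of viral RNA, cytosolic DNA or bacterial products in dendritic cells. TRIM25 adds ubiquitin to the RNA sensor RIG-I and can attach the ubiquitin-like protein ISG15. TRIM30a restrains signalling from Toll-like receptors to NF-κB by promoting the loss of TAB2 and TAB3, partners of the kinase TAK1. TRIM30d, TRIM12c and TRIM34a belong to the mouse relatives of the antiretroviral factor TRIM5. TRIM21 is a cytosolic receptor for antibody-coated viruses, TRIM26 acts on the interferon factor IRF3, and TRIM13 is a ligase of the endoplasmic reticulum membrane. TRIM56 takes part in signalling through cGAS and STING. TRIM14 lacks a RING domain and works as an adaptor of the mitochondrial protein MAVS, so the name ubiquitin ligase fits it only by family.

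On mm10 with the GENCODE M21 annotation, all 10 were protein-coding genes. Of these, 4 stood in one cluster on chromosome 7, within 263393 bases: Trim34a (104244457 to 104262234, plus strand), Trim12c (104338754 to 104353362, minus strand), Trim30a (104409025 to 104465193, minus strand) and Trim30d (104470014 to 104507849, minus strand). Trim21 was also on chromosome 7 (102557921 to 102565486, minus strand). The others were Trim25 on chromosome 11 (88999376 to 89020293, plus strand), Trim26 on chromosome 17 (36837134 to 36859398, plus strand), Trim13 on chromosome 14 (61598247 to 61605946, plus strand), Trim56 on chromosome 5 (137105644 to 137116209, minus strand) and Trim14 on chromosome 4 (46493781 to 46536141, minus strand).

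Total expected counts were 12769773 to 16586334 per library, and a difference of a few counts is within counting error at any depth. Ctcf had 975 to 1051 normalised counts in WT, 745 to 886 in WTL, 516 to 570 in KO and 526 to 563 in KOL, so every CTCF-deficient library lay below every wild-type one. All 8 genes of the dendritic and monocyte-derived list were present in every group. Between WT and KO, Itgax went from 12109 to 12709 up to 21952 to 22158, and Csf1r from 13491 to 14631 up to 23258 to 24103. H2-Ab1 went from 15190 to 16655 down to 9020 to 9454, and Flt3 from 129 to 137 down to 24.0 to 43.1. The other genes of this list differed less. The lists for T and NK cells and for erythroid cells summed to at most 11.8 normalised counts in any library. The summed level of 8 neutrophil genes was 1164 to 1283 in WT and 585 to 668 in KO, and that of 4 macrophage genes 2578 to 2810 and 1827 to 1883, lower in Adgre1 and Mertk but not in C1qb, with C1qa higher (60.5 to 71.6 and 147 to 168). The mast cell and basophil list went from 12.9 to 18.2 up to 78.7 to 84.3 through Gata2 alone, and the plasmacytoid list from 21.6 to 24.3 up to 107 to 122 through Ccr9 alone, their other genes being near 0. The methods describe selection of CD11c+ cells with magnetic beads before stimulation. The part of these cell types in the members' differences between KO and WT was not tested. In bulk samples fewer cells of a type and less RNA per cell cannot be told apart. WTL replicate 2 had 4.649% of its counts in ribosomal RNA genes, against at most 0.636% elsewhere. KOL replicate 2 stood apart from its group, with 15.92% of the tested genes over 1.5-fold from the other 2 libraries, against 9.7% and 9.77% for those. WTL replicate 1 was next, with 14.25%, against 8.08% and 10.71% for the others of its group. Member calls that leaving out either library ends, makes or turns are given with and without it.

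The first comparison asked how the members responded to LPS in wild-type cells. Of the 10, 9 were called higher in WTL than in WT (adjusted p under 0.05 and over 2-fold), where 12.6% of the 14008 genes tested were called higher. All 10 passed the p-value alone, against 30.0% of the tested genes, and in all 10 the lowest WTL library lay above the highest WT library, against 31.8% of the tested genes. The median log2 fold change of the members was 1.88, beside −0.018 over all tested genes. TMM, the main scaling, sets the bulk of genes level: with total counts alone, the median of all tested genes shifted to −0.527 and the share of higher genes among the called fell from 55.8% to 23.9%. Under that scaling 7 members were called, as with glmTreat and with limma on TPM. Trim56 (0.55) and Trim14 (0.83) lost their calls in all of these and Trim13 was at 0.13 (adjusted p = 0.358), whereas Trim25, Trim30a, Trim30d, Trim12c, Trim21, Trim26 and Trim34a were still called higher.

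**Figure D1:**
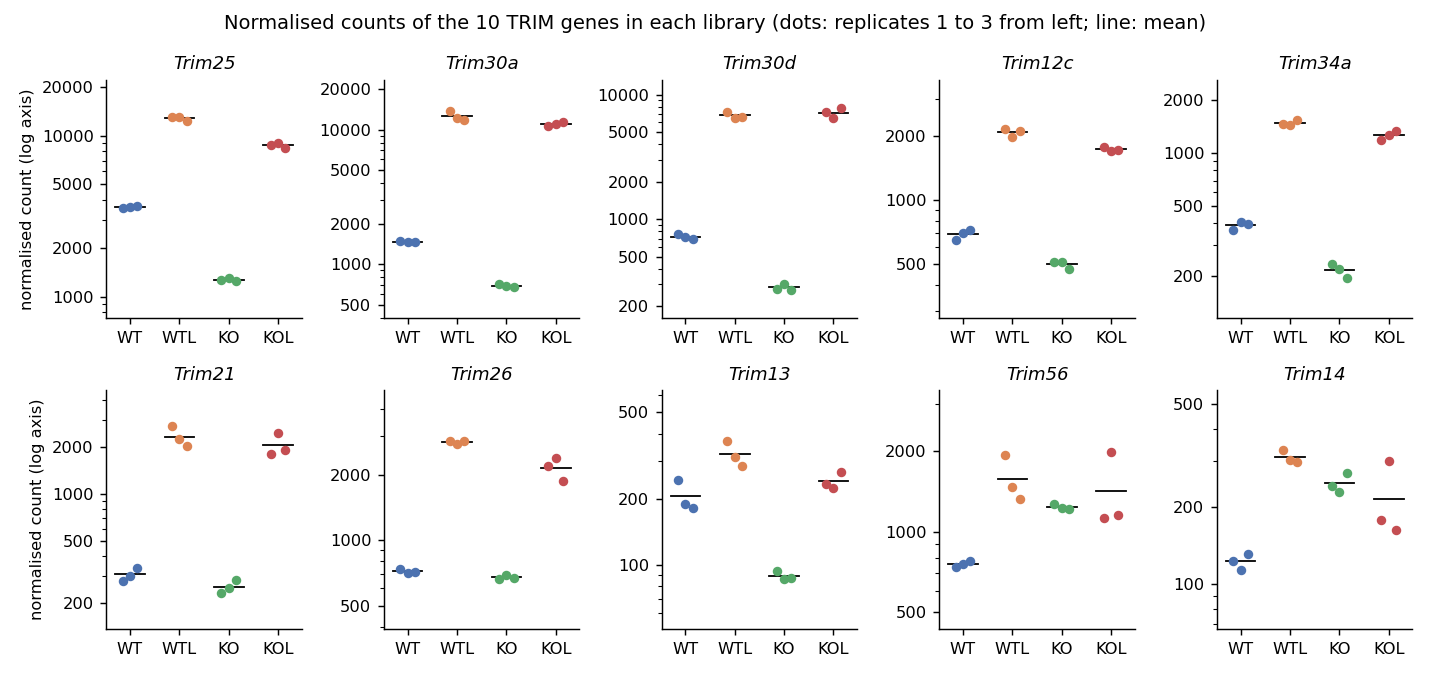
Normalised counts (log axis) of the 10 TRIM genes in every library, by group, with dots for replicates 1 to 3 from left to right and a line for the mean. For the first 8 genes each LPS group lies above the unstimulated group of its own genotype, while Trim56 and Trim14 are higher in KO than in WT and vary most among the KOL libraries.

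Trim25 had 3547, 3624 and 3654 normalised counts in the WT libraries and 12998, 13069 and 12364 in WTL. It rose by 1.83 on the log2 scale (SE 0.06, adjusted p = 4.86e-12). For the lists that follow, 12.6% of all tested genes were called higher and 1400 of 14008 lower in this comparison. Of the 20 genes of the RIG-I-like receptor and MAVS list, in which Trim25 acts, 9 were called higher and 0 lower, and 3 passed the p-value as lower under the fold cutoff, with the largest rises in Irf7 (log2 fold change 4.46), the RNA sensor Ifih1 (3.76) and Dhx58 (3.13). Of the 21 ubiquitin and ISG15 enzymes, 7 were called higher and 0 lower, led by Isg15 (4.86), its protease Usp18 (4.21) and the ISG15 ligase Herc6 (3.12).

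The cluster genes Trim30a and Trim30d had the largest rises among the members. Trim30a had 1499, 1456 and 1468 normalised counts in WT and 13772, 12084 and 11788 in WTL, so its log2 fold change was 3.09 (SE 0.07). Trim30d went from 756, 715 and 688 to 7249, 6529 and 6654, a log2 fold change of 3.24 (SE 0.08). The groups did not come near each other for either gene. Of the targets of TRIM30a, Tab2 was called higher (1.39) and Tab3 was not called (0.24, adjusted p = 0.0855). The TAK1, TRAF and IKK list of 17 genes, which holds both, had 4 called higher and 1 lower. Of all tested genes, 12.6% were called higher and 1400 of 14008 lower. In the list, Myd88 was at 1.67, Nfkb1 at 1.66 and the LPS receptor Tlr4 at −1.41. Trim34a had 368, 409 and 397 normalised counts in WT and 1461, 1457 and 1542 in WTL (log2 fold change 1.92, SE 0.08). Trim12c had 649, 697 and 720 in WT and 2170, 1972 and 2119 in WTL (1.6, SE 0.07). Both were raised in every WTL library.

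Trim21 went from 279, 299 and 338 normalised counts in WT to 2720, 2263 and 2031 in WTL, a rise of 2.94 on the log2 scale (SE 0.14). Trim26 went from 735, 704 and 713 to 2867, 2762 and 2851 (1.98, SE 0.08). Neither gene had a WTL library near the WT range. Trim13, in contrast, had 245, 190 and 183 normalised counts in WT and 371, 313 and 284 in WTL. Its log2 fold change, 0.64 (SE 0.12, adjusted p = 0.000455), stayed under the 2-fold cutoff. Dleu2, a noncoding gene that overlaps Trim13 on the opposite strand, averaged 483 normalised counts in WT and 385 in WTL. Without stated strand settings, reads of the pair cannot be told apart.

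Trim56 and Trim14, which act on the STING and MAVS pathways, rose the least among the called members. Trim56 had 737, 756 and 774 normalised counts in WT and 1929, 1470 and 1323 in WTL, and its log2 fold change of 1.06 (SE 0.18, adjusted p = 0.000189) lay close to the cutoff. The call was lost without WTL replicate 1 (0.88), without any 1 WT library (0.96 to 1.0), with total counts (0.55), with glmTreat, which tests against the cutoff itself (adjusted p = 0.775), and with limma on log2(TPM + 1) (0.61, adjusted p = 0.0596). Trim14 had 123, 114 and 131 in WT and 333, 305 and 298 in WTL (1.34, SE 0.18, adjusted p = 1.7e-05). RSEM's mean transcript length for Trim14 rose from 715.4 to 791.7 bases in WT to 871.3 to 906.7 in WTL. The rise in TPM, which is per length, was 0.50 on the log2(TPM + 1) scale (limma, adjusted p = 0.042). With total counts alone the rise in counts was 0.83, and limma on TPM also lowered that of Trim25, to 1.29. How far length and scaling each account for the lower value was not tested. Nans overlaps Trim14 on the opposite strand and averaged 1009 normalised counts in WT and 1208 in WTL. Of the 9 tested genes of the cGAS-STING list, 5 were called higher and 1 lower, beside 12.6% and 1400 of 14008 over all tested genes. Among them were Usp18 at 4.21, Ifi204 at 3.69, the DNase Trex1 at 2.40 and the deubiquitinase Usp20 at −1.29.

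**Figure D2:**
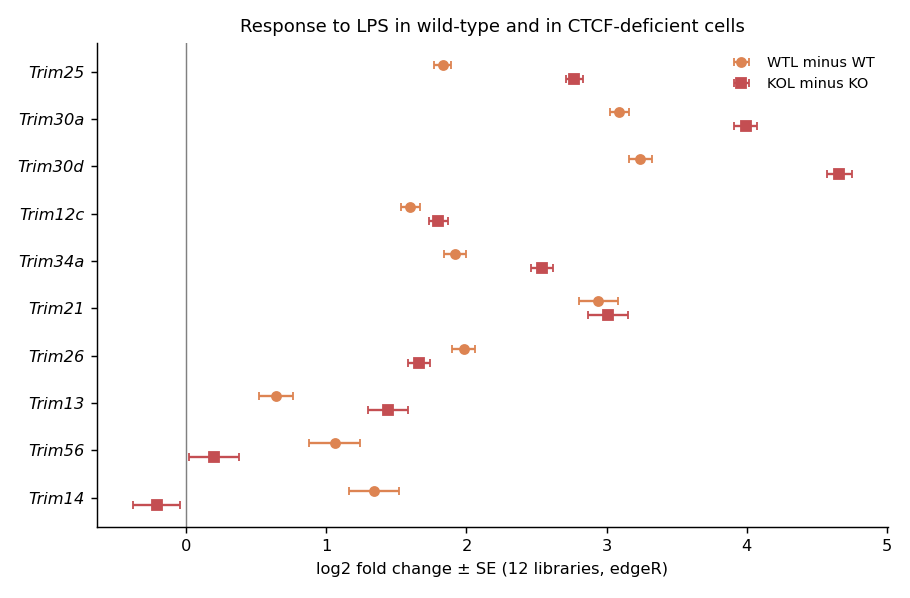
Log2 fold change with LPS (x axis, ± SE from the fit of 12 libraries) of each member in wild-type (circles, WTL minus WT) and CTCF-deficient cells (squares, KOL minus KO). The square lies to the right of the circle by 0.62 to 1.42 for Trim25, Trim30a, Trim30d, Trim34a and Trim13, and to the left by 0.86 for Trim56 and 1.55 for Trim14.

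Promoter sequence was read to see what the induced members share. The windows ran from 250 bases before to 50 bases after each RefSeq start (GRCm38.p6), and 9 of the 10 members had 1 or 2, Trim14 being the other. The interferon-stimulated response element was searched as TTTCNNTTTC on both strands, N being any base. It occurred in the windows of 6 of the 9, namely Trim30a, Trim30d, Trim12c, Trim34a, Trim21 and Trim26, and in 3.44% of all 32851 windows. Counted by gene, 3 of the 23 other tested TRIM genes with a window held it (13.0%). Trim21 and Trim26 each held 2 overlapping matches, and the matches of Trim34a and Trim21 lay just inside the transcript. Stretches of 30 bases, given 5′ to 3′ on the gene's strand with the matched bases in capitals, are shown because they set these 6 members apart from Trim25, Trim13 and Trim56, in which the letters did not occur. In the same cluster the element also stood in the windows of Trim12a and of Trim5, which was not called with LPS (−0.10, adjusted p = 0.471), and not in those of Trim30b and Trim30c, which rose by 3.38 and 5.38.
Trim30a, chr7:104465210-104465239: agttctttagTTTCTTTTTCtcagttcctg
Trim30d, chr7:104507871-104507900: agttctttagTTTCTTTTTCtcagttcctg
Trim12c, chr7:104353359-104353388: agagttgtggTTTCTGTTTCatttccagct
Trim34a, chr7:104244457-104244486: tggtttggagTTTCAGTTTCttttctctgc
Trim21, chr7:102565447-102565476: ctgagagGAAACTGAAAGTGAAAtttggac
Trim26, chr17:36836979-36837008: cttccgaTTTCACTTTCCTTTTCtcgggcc

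The 30 bases of Trim30a and Trim30d were identical and lay at nearly the same place, with the match ending 27 and 32 bases before the start. A second, inner Trim30a window held the same 10 letters. Among tested genes with a window, 4.05% held the element, as did 10.2% of those called higher and 2.25% of those called lower in WTL against WT. A match is a description of letters and says nothing of binding. The STAT element TTCNNNGAA occurred in 8.3% of all windows and in no member's window. The absence of these letters says nothing of binding either. The paper reports STAT5 bound at the promoter region of Trim25 in WT cells, a binding lost on CTCF depletion. The NF-κB consensus occurred in 8.46% of all windows and in 1 window of Trim13, where it did not overlap another motif.

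The promoter of Trim25 is shown because this gene responded to LPS without the interferon element in its window. It was rich in G and C (62.7%, 18 CpG), in contrast to Trim30a and Trim30d (43.7% and 42.7%, with 0 and 1 CpG). The 200 bases from 250 to 51 before the RefSeq start read as follows.
Trim25, chr11:88999153-88999352, plus strand: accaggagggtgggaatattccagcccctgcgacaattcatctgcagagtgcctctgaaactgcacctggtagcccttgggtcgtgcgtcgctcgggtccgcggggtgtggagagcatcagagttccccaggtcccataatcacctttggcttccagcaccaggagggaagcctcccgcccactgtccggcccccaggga

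The second comparison asked what CTCF loss did without LPS. Of the 10 members, 6 were called lower in KO than in WT (over 1.3-fold), where 17.2% of tested genes were, and 2 were called higher, where 17.3% were. In 7 members the KO libraries lay entirely below WT, against 32.3% of tested genes. The median of the members was −0.66 on the log2 scale, beside −0.014 over all tested genes. Trim25, Trim13 and Trim30a belong to the deregulated genes near lost STAT5 peaks that the study listed on these samples, and their direction is not independent evidence. With total counts alone the median of all tested genes was −0.119 and the share of higher genes among the called fell from 50.2% to 38.5%, and the same 8 members were called in the same direction.

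Trim25 fell the most, from 3547, 3624 and 3654 normalised counts in WT to 1265, 1300 and 1250 in KO. KO stood at 35.2% of WT (log2 fold change −1.50, SE 0.06, adjusted p = 1.44e-10). Both groups were tight and far apart. Trim13 dropped from 245, 190 and 183 to 93.3, 86.4 and 87.1 (−1.21, SE 0.14, adjusted p = 6.47e-06), and its antisense neighbour Dleu2 averaged 483 in WT and 331 in KO and was also called lower, at −0.54. Of the tested genes within 100 kb of Trim25, Scpep1 and Coil were not called, and Dgke, which makes phosphatidic acid, was called higher (0.57).

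In the cluster, Trim30d fell from 756, 715 and 688 to 275, 302 and 273 (−1.34, SE 0.08) and Trim30a from 1499, 1456 and 1468 to 714, 687 and 676 (−1.09, SE 0.07). Trim34a fell from 368, 409 and 397 to 234, 222 and 197 (−0.85, SE 0.08), and Trim12c from 649, 697 and 720 to 511, 509 and 472 (−0.47, SE 0.07). All 4 KO groups lay below their WT groups, with adjusted p of 1.39e-08, 2.06e-08, 1.65e-06 and 9.39e-05. The call of Trim12c was lost with glmTreat (adjusted p = 0.131). The decline was not shared by every TRIM gene there. Of the 9 tested TRIM genes of the cluster, 4 were called lower and 0 higher in KO against WT, these 4 being the members. The members were picked with earlier results of these data known, so this split is not independent evidence. Trim12a (−0.19, adjusted p = 0.109), Trim6 (−0.19, adjusted p = 0.362), Trim30b (0.38, adjusted p = 0.161) and Trim30c (1.06, adjusted p = 0.0881) did not pass. Trim5 (−0.34, adjusted p = 0.027) passed the adjusted p but stayed under the fold cutoff. With LPS in wild-type cells, 7 of these 9 were called higher, all but Trim5 and Trim6.

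**Figure D3:**
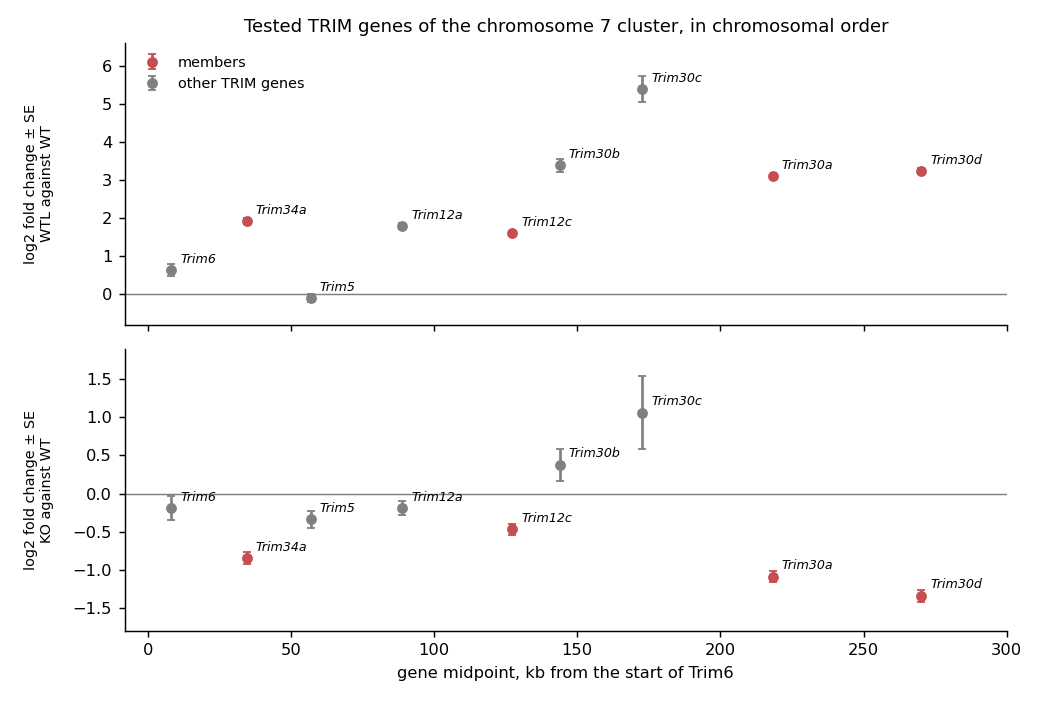
Log2 fold change ± SE (y axis) of the 9 tested TRIM genes of the chromosome 7 cluster against the position of the gene midpoint (x axis, kb from the start of Trim6), for WTL against WT (top) and KO against WT (bottom), with members in red. In KO, Trim34a, Trim12c, Trim30a and Trim30d lie lowest, and Trim5 (−0.34), Trim12a (−0.19) and Trim6 (−0.19) also lie below 0. Trim30b and Trim30c lie above 0 with wide errors, and 7 genes rise by 1.6 to 5.38 with LPS.

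These neighbours share sequence, and RSEM divides a read that fits several genes. Of the 100-base windows of the annotated transcripts, 21.0% of those of Trim34a also occurred in Trim34b, 8.05% of those of Trim12c in another gene, mostly Trim5, 4.41% of those of Trim30a in Trim30d and 4.57% of those of Trim30d in Trim30a. Counts of these 4 members were not whole in any of the 12 libraries, so their split is uncertain. Those of Trim14 were not whole either, although it shared no such window, whereas Trim25 and Trim21 shared no such window with another gene. Gm47248 overlaps Trim34a on the opposite strand and averaged 15.1 normalised counts in WT and 113 in WTL, which is small beside Trim34a. Gm16464, a processed pseudogene inside Trim30d, averaged 5.23 and 45.0.

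Trim21 and Trim26 differed little between KO and WT. Trim21 had 232, 250 and 281 normalised counts in KO against 279, 299 and 338 in WT, which overlapped (−0.26, SE 0.14, adjusted p = 0.152). It passed the threshold on TPM (limma on log2(TPM + 1), −0.46, adjusted p = 0.0383). Trim26 had 664, 691 and 673 in KO against 735, 704 and 713 in WT (−0.09, SE 0.08, adjusted p = 0.434), where the groups did not overlap but lay within a few percent of each other.

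Trim56 and Trim14 were the members higher in KO. Trim14 rose from 123, 114 and 131 normalised counts to 240, 229 and 270, 2.00-fold (log2 fold change 1.00, SE 0.18, adjusted p = 0.000404). Trim56 rose from 737, 756 and 774 to 1267, 1225 and 1213 (0.71, SE 0.18, adjusted p = 0.00601). No KO library of either gene overlapped the WT range. For Trim56 the call was lost when TPM was tested with limma (0.52 on the log2(TPM + 1) scale, adjusted p = 0.148). Of the 4 tested genes within 100 kb of Trim14, 2 were also called higher, Coro2a, a coronin gene whose 3′ end lies 796 bases away, at 0.63, and Tbc1d2 at 0.45.

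The pathways around the members were given by their lists, beside 17.2% of all tested genes called lower and 17.3% called higher. Of 20 interferon-stimulated genes, 15 were called lower and 0 higher, with Oas3 at −2.00, Rtp4 at −1.47 and Xaf1 at −1.41. In the list of the type I interferon receptor, STAT and IRF genes, 5 of 12 were lower and 1 higher, including Irf1 (−1.32), Stat2 (−1.11) and Irf9 (−0.92), which form or follow the interferon signal, and the receptor subunit Ifnar1 (0.65). Of the RIG-I-like receptor list, 6 were lower and 4 higher, with Irf7 at −0.93 but Ifih1 at 1.09. Of the TAK1 list, 4 were lower and 1 higher, led by Tab1 (−2.42), an activator of TAK1. Of the ubiquitin and ISG15 enzymes, 5 were lower and 1 higher, with Usp18 at −1.0 and the ISG15-activating enzyme Uba7 at −0.74. Of the cGAS-STING list, 4 were lower and 2 higher, with the DNA sensor Cgas at −1.02. Of the 7 genes of the GM-CSF receptor, JAK2 and STAT5 list, only Jak2 was called (−0.50).

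**Figure D4:**
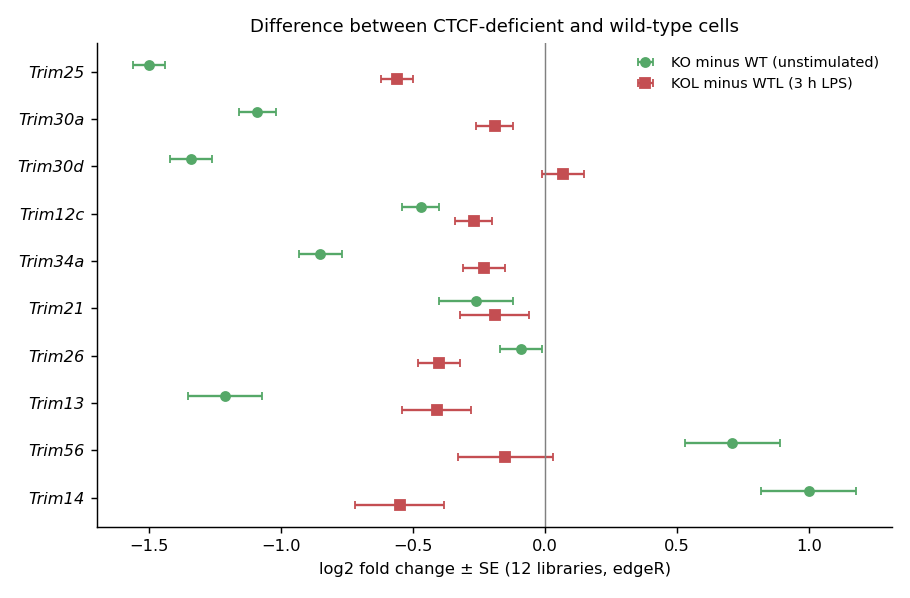
Log2 fold change between CTCF-deficient and wild-type cells (x axis, ± SE from the fit of 12 libraries) of each member, unstimulated (circles) and after LPS (squares). Trim25 lies at −1.50 without LPS and −0.56 with it, and Trim56 and Trim14 lie above 0 without LPS only.

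The third comparison set KOL against WTL. No member was called lower or higher with the 1.5-fold cutoff by edgeR's quasi-likelihood test, where 12.5% of tested genes were called in each direction, and DESeq2 also called 0. Without a fold cutoff, 7 members passed the adjusted p, all lower, where 23.3% of tested genes did, and 7 had an unadjusted p under 0.05. In 6 members the KOL libraries lay entirely below WTL, against 24.4% of tested genes. The count of 7 was 9 without KOL replicate 2, 4 without WTL replicate 1, 3 without KOL replicate 1, 6 with the replicate number as a block and 2 when the 6 libraries were fitted alone. The median of the members was −0.25 on the log2 scale, beside −0.035 over all tested genes.

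Trim25 had 8710, 8993 and 8392 normalised counts in KOL against 12998, 13069 and 12364 in WTL. That is 67.9% of the WTL level (−0.56, SE 0.06, adjusted p = 2.78e-06), just inside the cutoff. Trim13 had 234, 225 and 266 against 371, 313 and 284 (−0.41, SE 0.13, adjusted p = 0.0156). Without WTL replicate 1 it did not pass (−0.30, adjusted p = 0.0661). Trim26, which had hardly differed without LPS, had 2187, 2374 and 1868 against 2867, 2762 and 2851 (−0.40, SE 0.08, adjusted p = 0.000918). In all 3 genes every KOL library lay below every WTL library.

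The cluster genes came close to the wild-type level. Trim30a had 10706, 10960 and 11344 normalised counts in KOL against 13772, 12084 and 11788 in WTL (−0.19, SE 0.07, adjusted p = 0.0352; −0.12 and adjusted p = 0.125 without WTL replicate 1). Trim30d had 7206, 6554 and 7754 against 7249, 6529 and 6654, which overlapped (0.07, SE 0.08, adjusted p = 0.46). Trim12c and Trim34a lay at −0.27 (adjusted p = 0.00557) and −0.23 (adjusted p = 0.0233). Trim21 had 1802, 2449 and 1910 against 2720, 2263 and 2031, which overlapped (−0.19, SE 0.13, adjusted p = 0.253). Without KOL replicate 2 it was at −0.33 and passed (adjusted p = 0.0248), and without WTL replicate 1 it was at −0.06.

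Trim56 and Trim14 were spread widely in KOL, with replicate 2 high in both. Trim56 had 1122, 1979 and 1149 normalised counts in KOL against 1929, 1470 and 1323 in WTL (−0.15, SE 0.18, adjusted p = 0.532). Trim14 had 177, 302 and 162 against 333, 305 and 298 (−0.55, SE 0.17, adjusted p = 0.0196). Without WTL replicate 1 they were at 0.02 and −0.50 (adjusted p = 0.946 and 0.0509). The groups overlapped for both genes through KOL replicate 2. Without KOL replicate 2, Trim56 was at −0.47 (adjusted p = 0.00451) and Trim14 at −0.87 (adjusted p = 9.13e-06), past the 1.5-fold cutoff. Of the 20 interferon-stimulated genes, 3 were called lower here, Oas2, Isg20 and Oas3, where 12.5% of all tested genes were. Without KOL replicate 2, 5 of the list were called lower.

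The fourth comparison was the response to LPS in CTCF-deficient cells. Of the 10 members, 8 were called higher in KOL than in KO (over 2-fold), where 15.1% of tested genes were, and the same 8 did not overlap between the groups, against 34.9%. The median of the members was 2.17, beside −0.024 over all tested genes, which total-count scaling moved to −0.397, with 31.0% instead of 53.7% of called genes higher. The rises were 25.3-fold for Trim30d (log2 fold change 4.66, SE 0.09), 15.9-fold for Trim30a (3.99, SE 0.08), 8.07-fold for Trim21 (3.01, SE 0.14), 6.84-fold for Trim25 (2.77, SE 0.06), 5.82-fold for Trim34a, 3.49-fold for Trim12c, 3.17-fold for Trim26 and 2.72-fold for Trim13. Trim13, under the cutoff in wild-type cells, passed it here from a lower starting level, but not with limma on log2(TPM + 1) (0.88), which left 7 members called. Trim56 (0.20, SE 0.18, adjusted p = 0.352) and Trim14 (−0.21, SE 0.17, adjusted p = 0.302) were not called and overlapped between the groups. Without KOL replicate 2, Trim56 turned to −0.12 and Trim14 to −0.54 (adjusted p = 0.000389).

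Whether the response to LPS itself differed between the genotypes was tested by the interaction, which uses the same 12 libraries as the comparisons above. The response was larger in CTCF-deficient cells for 5 members, where 8.7% of tested genes passed in this direction, and smaller for 2, where 8.75% did. The median of the members was 0.41, beside −0.016 over all tested genes (0.12 with total counts alone, which raised the share of higher genes among the called from 49.9% to 72.9%). Trim30d differed the most among the larger responses, by 1.42 on the log2 scale (SE 0.11, adjusted p = 2.68e-06), followed by Trim25 (0.95, SE 0.08, adjusted p = 6.1e-06), Trim30a (0.90, SE 0.10), Trim13 (0.80, SE 0.19) and Trim34a (0.62, SE 0.11). These 5 were all called lower in KO without LPS, so that the larger fold went with a lower start and ended at or below the WTL level, except for Trim30d, whose KOL mean was 105% of WTL.

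Trim14 differed by −1.55 (SE 0.25, adjusted p = 0.000795) and by −1.88 without KOL replicate 2. Trim56 differed by −0.86 (SE 0.26, adjusted p = 0.0337), a call that was lost when any 1 of 9 libraries was left out and that stood at −1.18 (adjusted p = 0.000119) without KOL replicate 2. Trim12c (0.20, adjusted p = 0.181), Trim21 (0.08, adjusted p = 0.829) and Trim26 (−0.31, adjusted p = 0.0768) did not pass, and Trim26 passed without KOL replicate 2 (−0.39, adjusted p = 0.0107). Of the 20 interferon-stimulated genes, 13 had a larger response in CTCF-deficient cells and 0 a smaller one, led by Oas2 (1.21), Xaf1 (1.2) and Oas3 (1.16).

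Levels between genes were compared per length, in TPM. In WT, Trim25 was the most abundant at 64.7 TPM ± 0.161 (SD, n = 3), followed by Trim30a at 42.9 ± 1.76 and Trim26 at 28.9 ± 2.5, and Trim56 was the lowest at 10.2 ± 0.867. In WTL, Trim30a led with 248 ± 29.0, ahead of Trim30d at 167 ± 20.1 and Trim25 at 159 ± 5.97, the last 2 of which overlapped, while Trim13 and Trim56 were at 16.1 and 16.4. In KO, the order changed: Trim14 led with 44.8 ± 5.05, above Trim26 at 23.8, Trim25 at 21.4 and Trim30a at 20.4, and Trim13 was the lowest at 6.00. In KOL, Trim30a was at 217 ± 3.74, Trim30d at 168 ± 4.24 and Trim25 at 106 ± 5.13. The high TPM of Trim14 goes with a short mean transcript length, 681.0 to 754.9 bases in KO, and by normalised counts Trim14 lay below Trim25, Trim26 and Trim30a in every group.

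Over the 4 groups, 7 members had the order KO, WT, KOL, WTL from low to high: Trim13, Trim25, Trim30a, Trim12c, Trim21, Trim26 and Trim34a. The order is one of group means, and the share of all tested genes that have it was not counted. Between KO and WT, Trim26 differed by only −0.09 on the log2 scale and did not pass. Neighbouring groups in that order overlapped for WT and KOL in Trim13, and for KO and WT and for KOL and WTL in Trim21. Trim30d had KO, WT, WTL, KOL, with the last 2 overlapping. Trim56 had WT, KO, KOL, WTL, with overlap of KOL with both neighbours. Trim14 had WT, KOL, KO, WTL, with overlap of KOL and KO.

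The members' log2 levels over the 12 libraries fell into the same pattern. Pearson's r was 0.998 for Trim30a with Trim30d and 0.922 for Trim56 with Trim14, whereas Trim14 reached only 0.047 with Trim13 and 0.247 with Trim25. These are descriptions over libraries that share 4 groups. Among 9328 genes with a mean of at least 100 normalised counts, those most like Trim25 were Slfn1, Oas2 and Pml (r of 0.9972 each), and those most like Trim30a were Ifi47 (0.9989), Sp100 (0.9988) and Car13 (0.9986). Trim21 was most like Ifit2 and Slfn5 (0.9986 each), Trim34a like Rtp4 (0.9985), Trim12c like Ifi47 and Ifitm3 (0.9977 each), Trim26 like Mafk (0.9986) and Trim30d like Pcgf5 (0.9988). Trim13 was most like Rlim (0.9871), Trim56 like the integrin Itga4 (0.993) and Trim14 like Tm9sf4 (0.9597).

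The rest of the family was set beside the members. Of 59 other TRIM genes, 35 were tested and 17 had at most 3 counts in every library. With LPS in wild-type cells, 6 were called higher and 4 lower, with a median log2 fold change of −0.39. Of the 14008 tested genes, 1766 were called higher and 1400 lower. The rises were led by the cluster genes Trim30c (5.38, from a mean of 19.1 normalised counts in WT), Trim30b (3.38) and Trim12a (1.79), and the falls were Trim7 (−2.46) and Trim37 (−1.23) among others. In KO against WT, 7 were higher and 3 lower, beside 17.3% and 17.2% of all tested genes. Among them were Trim62 (1.36), Trim36 (0.82) and Trim44 (0.71) and, lower, Trim29 (−1.82), Trim59 (−1.27) and Trim24 (−0.71). No test set the members against these genes.

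**Figure D5:**
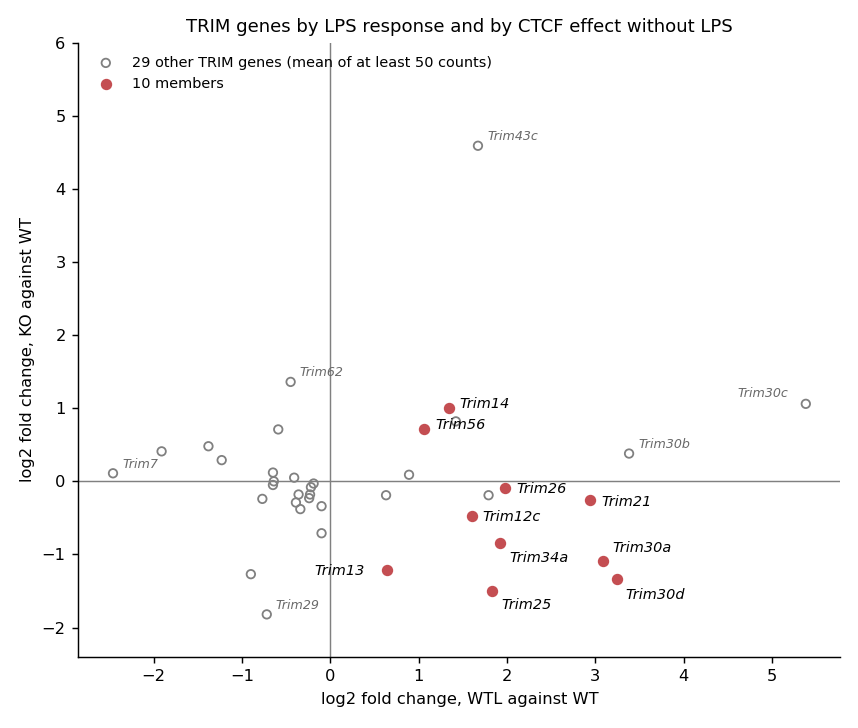
Each TRIM gene by its log2 fold change in WTL against WT (x axis) and in KO against WT (y axis), with the 10 members in red and, as open circles, the 29 other tested TRIM genes with a mean of at least 50 normalised counts. Of the members, 8 lie at the lower right, higher with LPS and below 0 in KO, and Trim56 and Trim14 lie at the upper right.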

How the data were processed

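RNA-seq was carried out on 12 BMDC cultures, 3 per group, on an Illumina HiSeq with paired reads. The authors ran Trim Galore on the reads, STAR (2.5.1 in the submitters' processing notes) for alignment to mm10, and RSEM for quantification. They deposited an expected count per gene, an estimate that need not be whole, and a TPM, which is per length and keeps no depth. The effective lengths were deposited beside them. The methods name a stranded poly(A) kit and the labels name depletion of ribosomal RNA, and strand settings are not given in the sources used here.

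Expected counts were rounded, scaled by TMM in edgeR 4.0.16 (R 4.3.3), filtered by group with filterByExpr (14008 genes left) and tested with the quasi-likelihood test in one fit of 12 libraries without covariates. P-values were adjusted by Benjamini-Hochberg over all tested genes (threshold 0.05), and the fold cutoffs were 2 for LPS, 1.3 for KO against WT, 1.5 for KOL against WTL and none for the interaction. The SE is the log2 fold change divided by the square root of the F statistic. Normalised counts are counts over the effective library size times its mean, errors are SDs, and the floor is 3 counts.

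The members, gene lists and tests were chosen with earlier results of these data known. Named were all members, up to 3 called rises and falls per list with a mean of at least 100 normalised counts, neighbours within 100 kb and the 3 genes most like each member. Neighbours that overlap a member are named whatever their values. Not every called neighbour is reported here. Alternatives were DESeq2 1.42.0, its size factors or total counts in edgeR, the 6 libraries alone, other filters, limma 3.58.1 on log2 TPM with a pseudocount of 1 or of 0.1 (genes reaching 1 TPM in 3 libraries or more), glmTreat, no fold cutoff, the replicate number as a block and leaving out each library. Counts per list without KOL replicate 2 or WTL replicate 2 were added after seeing the data. The scripts were tested on simulated data. Promoter windows are RefSeq's (GRCm38.p6). Total expected counts of 12769773 to 16586334 per library bound counting error only. Python 3.11.15, numpy 2.4.6, pandas 2.3.3 and matplotlib 3.10.9 were used.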

Additional observations from a re-analysis of the deposited data

Results flagged for a closer look

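The LPS response differed between CTCF-deficient and wild-type cells for 7 members by the interaction test of edgeR (adjusted p under 0.05 over all genes), which is why these are listed. The response was larger in CTCF-deficient cells for Trim30d (1.42 on the log2 scale), Trim25 (0.95), Trim30a (0.90), Trim13 (0.80) and Trim34a (0.62). It was smaller for Trim14 (−1.55) and Trim56 (−0.86), the members that were higher in KO than in WT. Without KOL replicate 2, these last 2 differed by −1.88 and −1.18. The call of Trim56 was lost when any 1 of 9 libraries was left out. It was also lost with total counts alone and with both limma fits.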

How the results depend on the processing

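Of the member results under all alternatives and left-out libraries, 827 kept their direction and call, 30 lost a call, 16 gained one and 7 turned direction. A call here needs both the adjusted p and the fold cutoff. A result that crossed the adjusted p alone therefore counts as kept. An example is Trim30a in KOL against WTL, at adjusted p = 0.0352 in the main fit and 0.125 without WTL replicate 1 (edgeR). In KO against WT, the members called higher were 1 under glmTreat and under both limma fits, in place of 2. Those called lower ranged from 5 to 7, in place of 6. Trim12c lost its call under glmTreat, and Trim21 was called with both limma fits. In KOL against WTL, the members called lower were 1 with limma on log2(TPM + 0.1) and 7 with no fold cutoff, in place of 0, and ranged from 0 to 1 when 1 library was left out. In KOL against KO, 1 member, Trim14, was called lower by limma (−1.07 on log2(TPM + 1) and −1.10 on log2(TPM + 0.1)), in place of 0, and 7 were called higher, in place of 8, Trim13 being at 0.88 and 0.97. In WTL against WT, 7 were called higher with total counts, glmTreat and both limma fits, in place of 9. In the interaction, the members called lower were 1 with total counts alone and with both limma fits, in place of 2, and ranged from 1 to 3 when 1 library was left out. The cause of these changes was not tested.

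Trim56 in KOL against KO turned from 0.20 to −0.18 with total counts, −0.12 without KOL replicate 2, −0.19 with limma on log2(TPM + 1) and −0.20 on log2(TPM + 0.1), and ranged from −0.12 to 0.34 with 1 library left out. In KOL against WTL it turned from −0.15 to 0.02 without WTL replicate 1 (range −0.47 to 0.02 with 1 library left out). The interaction of Trim21 turned from 0.08 to −0.01 without WTL replicate 3 and −0.07 without KOL replicate 2 (range −0.07 to 0.21 with 1 library left out). None of the turned values passed the threshold.

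With the replicate number as a block, the members called stayed at 9 for WTL against WT, 6 lower and 2 higher for KO against WT, 8 for KOL against KO, and 5 larger and 2 smaller for the interaction, and no call of these changed. In KOL against WTL, 6 members passed the adjusted p with the block, in place of 7, Trim30a being at adjusted p = 0.0503. Of 18 pairs of libraries with the same number, 1 correlated by over 0.1 in its deviations from the group means (range −0.286 to 0.112). With so few libraries per group, such deviations cannot settle whether the cultures were paired.

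Over all genes, the calls moved by over 1.5 times under some alternatives: higher in WTL against WT from 770 to 4209 (1766 in the main fit), higher in KO against WT from 1498 to 3110 (2427), lower in KOL against WTL from 978 to 3266 (1752), higher in KOL against KO from 932 to 4704 (2113) and lower in the interaction from 487 to 1309 (1225).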

Other observations

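Among the other 35 tested TRIM genes, 7 were higher and 2 lower in KOL against WTL, beside 12.5% of all tested genes in each direction. Trim7, a ligase that binds glycogenin, had fallen with LPS in both genotypes (−2.46 in WTL against WT and −1.09 in KOL against KO) and lay 1.48 higher in KOL than in WTL on the log2 scale. Trim35 lay 0.72 higher. Trim29 lay at −2.60 and Trim16 at −0.96. Trim43c lay 3.87 higher, with a mean of 278 normalised counts in KOL and 18.7 in WTL. With LPS in CTCF-deficient cells, 7 of the 35 were called higher and 7 lower, beside 2113 and 1819 of the 14008 tested genes. The largest rises were those of Trim30c (4.41), Trim30b (2.86) and Trim12a (2.05). Among the falling genes with a mean of at least 100 normalised counts were Trim37 (−1.54) and Trim16 (−1.42), and Trim65, at lower counts, fell further, from a mean of 150 normalised counts in KO to 28.4 in KOL, and is named after its value was seen. The interaction was positive for 7 of the 35, with Trim7 at 1.36, Trim28 at 0.79 and Trim59 at 0.78. It was negative for 3, Trim36 at −1.13, Trim16 at −1.02 and Trim29 at −0.79. Over all tested genes, 8.7% passed as positive and 8.75% as negative.

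The list of the GM-CSF receptor, JAK2 and STAT5 had 3 of 7 genes called higher with LPS in wild-type cells, where 12.6% of all tested genes were. These were Stat5a (2.66), the feedback inhibitor Cish (1.93) and Jak2 (1.23). The same 3 were the ones called higher in KOL against KO (2.48, 2.11 and 1.74), where 15.1% of all tested genes were. After LPS, the receptor subunit Csf2ra lay below WTL in KOL (log2 fold change −0.64) and was the only gene of that list called.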
